A study of Mus musculus with 16 samples.

Results

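The 6 genes described here, Rpl10l, Tuba3a, Tuba3b, Pigp, Fam25c and Gtsf1l, were selected on the signal of their probes, bright in mouse embryonic stem cells and dim in epiblast stem cells (EpiSC). They are 6 of the 20972 genes that the array names. They were read by 9 of the 55681 probes on the array, found by the RefSeq accession that the array files give for each probe: 2 probes each for Rpl10l, Tuba3a and Pigp, and 1 each for Tuba3b, Fam25c and Gtsf1l. The same signals thus chose the genes, and the fall in EpiSC is given as a description, with no test.

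RNA from 16 lines of strain 129/Ola, 4 lines in each of 4 groups, was hybridised to single-colour Agilent arrays, 1 array per line. The LIF serum lines (LIF_serum, called naive in the labels) were derived from pre-implantation embryos and grown in LIF and serum. The 2i lines (2i_LIF, ground state) and the 2iSB lines (2iSB_LIF, ground state) also came from pre-implantation embryos and were grown in 2i with LIF, and in 2i with SB431542 and LIF. 2i is a pair of inhibitors of the MEK and GSK3 kinases, and SB431542 inhibits the Activin/Nodal type I receptors. The EpiSC lines (primed) were taken from post-implantation epiblast (E6.5) and grown in Activin A and bFGF. The passage number ran from 17 to 28. Each line was sampled once, so p-values rest on the spread between lines. LIF serum replicates 1 and 2 carry the sample code LS and lay on slide 1, while replicates 3 and 4 carry the code LSFF and lay on slide 2. All 4 EpiSC arrays lay on slide 2, as did 2i replicate 4 and 2iSB replicate 3.

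Values are log2 of the background-subtracted signal minus the 75th percentile of that array, so 0 is the brightness of the 75th percentile. The scanner software called 52.8% to 64.5% of the spots of an array well above background, and no spot was saturated. Defining markers followed the labels. Pou5f1, the core pluripotency factor also known as Oct4, differed between EpiSC and LIF serum by less than 2-fold (-0.49). The core list was not unchanged as a whole. Of its 9 genes, 4 were lower in EpiSC and 0 higher, at a limma adjusted p under 0.05 and at least 2-fold (median -0.93). Over all genes tested, 16.2% were lower and 16.9% higher. Zfp42 (Rex1), a naive marker, was lower in EpiSC by 8.27 on the log2 scale, and Fgf5, a primed epiblast marker, was higher by 5.36. The summed linear level of 16 fibroblast markers was 349 to 518 in EpiSC, 140 to 247 in LIF serum, 78.9 to 99.3 in 2i and 78.1 to 92.1 in 2iSB (multiples of the 75th percentile), and all 16 were well above background on every EpiSC array, against 14 to 16 in LIF serum, 8 to 12 in 2i and 6 to 12 in 2iSB. The part that other cells may have in the results was not tested. In bulk RNA, fewer cells that express a gene and less RNA per cell cannot be told apart.

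Most of these genes are known from the male germ line. Rpl10l is an intronless copy of the X-linked gene Rpl10 that encodes a protein of the large ribosomal subunit and is used in the testis when the X chromosome is silent. Tuba3a and Tuba3b encode near-identical alpha tubulins found mainly in the testis, and Gtsf1l is a paralog of Gtsf1, a zinc finger protein of the piRNA pathway, which silences transposons in germ cells. Pigp is of another kind: it encodes a subunit of the enzyme that starts the glycosylphosphatidylinositol (GPI) anchor, which holds proteins on the outer face of the cell membrane in many tissues. Fam25c encodes a small protein whose role is not given here. Germline genes of this kind are repressed in somatic cells by DNA methylation and by complexes that hold E2F6, a factor known to repress Tuba3a and Tuba3b through their promoters.

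The promoter sequences are shown because these genes share their pattern and because an E2F-type motif, TTCCCGC, lies just upstream of 4 of the 6. The 6 genes have 9 promoter windows, of which 4 hold the motif. The sequences, from RefSeq and build GRCm38.p6, are the 250 bases before an annotated start, 5′ to 3′ on the strand of the gene, and capitals mark the motif (GCGGGAA where it lies on the other strand). The windows are chr12:66284402-66284651 for Rpl10l (minus strand), chr6:125286082-125286331 for Tuba3a (minus), chr6:145615713-145615962 for Tuba3b (plus) and chr16:94371016-94371265 for Pigp (minus), 1 of its 4 annotated starts.
Rpl10l: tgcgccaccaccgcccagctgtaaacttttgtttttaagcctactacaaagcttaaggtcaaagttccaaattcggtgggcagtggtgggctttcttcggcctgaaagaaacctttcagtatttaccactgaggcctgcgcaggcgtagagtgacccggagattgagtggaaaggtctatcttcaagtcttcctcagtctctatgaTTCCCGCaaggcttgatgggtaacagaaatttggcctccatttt
Tuba3a: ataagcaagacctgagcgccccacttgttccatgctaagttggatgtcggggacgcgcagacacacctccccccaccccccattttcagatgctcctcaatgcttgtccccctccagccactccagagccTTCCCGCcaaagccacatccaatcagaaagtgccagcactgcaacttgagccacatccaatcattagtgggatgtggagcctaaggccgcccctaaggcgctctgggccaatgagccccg
Tuba3b: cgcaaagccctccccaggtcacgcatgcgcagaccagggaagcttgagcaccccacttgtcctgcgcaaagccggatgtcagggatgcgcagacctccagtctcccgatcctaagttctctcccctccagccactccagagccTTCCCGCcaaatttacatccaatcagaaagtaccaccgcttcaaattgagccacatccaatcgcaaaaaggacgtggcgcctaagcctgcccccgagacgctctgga
Pigp: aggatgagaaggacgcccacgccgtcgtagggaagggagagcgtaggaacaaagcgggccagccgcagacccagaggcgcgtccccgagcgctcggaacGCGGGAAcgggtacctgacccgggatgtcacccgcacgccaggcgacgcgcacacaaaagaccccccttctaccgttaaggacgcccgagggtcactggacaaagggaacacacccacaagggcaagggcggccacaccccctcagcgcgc

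The motif was found 44 bases before the start of Rpl10l, 120 before that of Tuba3a and 107 before that of Tuba3b, on the strand of the gene, and on the other strand 151 bases before 1 start of Pigp. It was searched on both strands and was held by 3.82% of 32851 promoter windows of the same length. That share is per window, not per gene, and was not matched for CpG dinucleotides, although the motif itself holds a CpG. The bases next to the motif are the same in Tuba3a and Tuba3b, so their matches are not separate finds. The other 3 Pigp windows and those of Fam25c and Gtsf1l do not hold the motif. A second motif, the E-box CACGTG, was found in 2 of the Pigp windows and in 6.02% of all windows. Those 2 windows overlap and hold the same 1 site, 203 bases before 1 start and 43 before another, so the matches are not separate. The windows of Rpl10l, Tuba3a and Tuba3b hold 8, 8 and 14 CpG dinucleotides and those of Pigp 22 to 38, against a median of 6, while Fam25c and Gtsf1l hold 1 each. The motifs were chosen after the sequences had been seen, and a match is not shown to be a bound site.

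**Figure D1:**
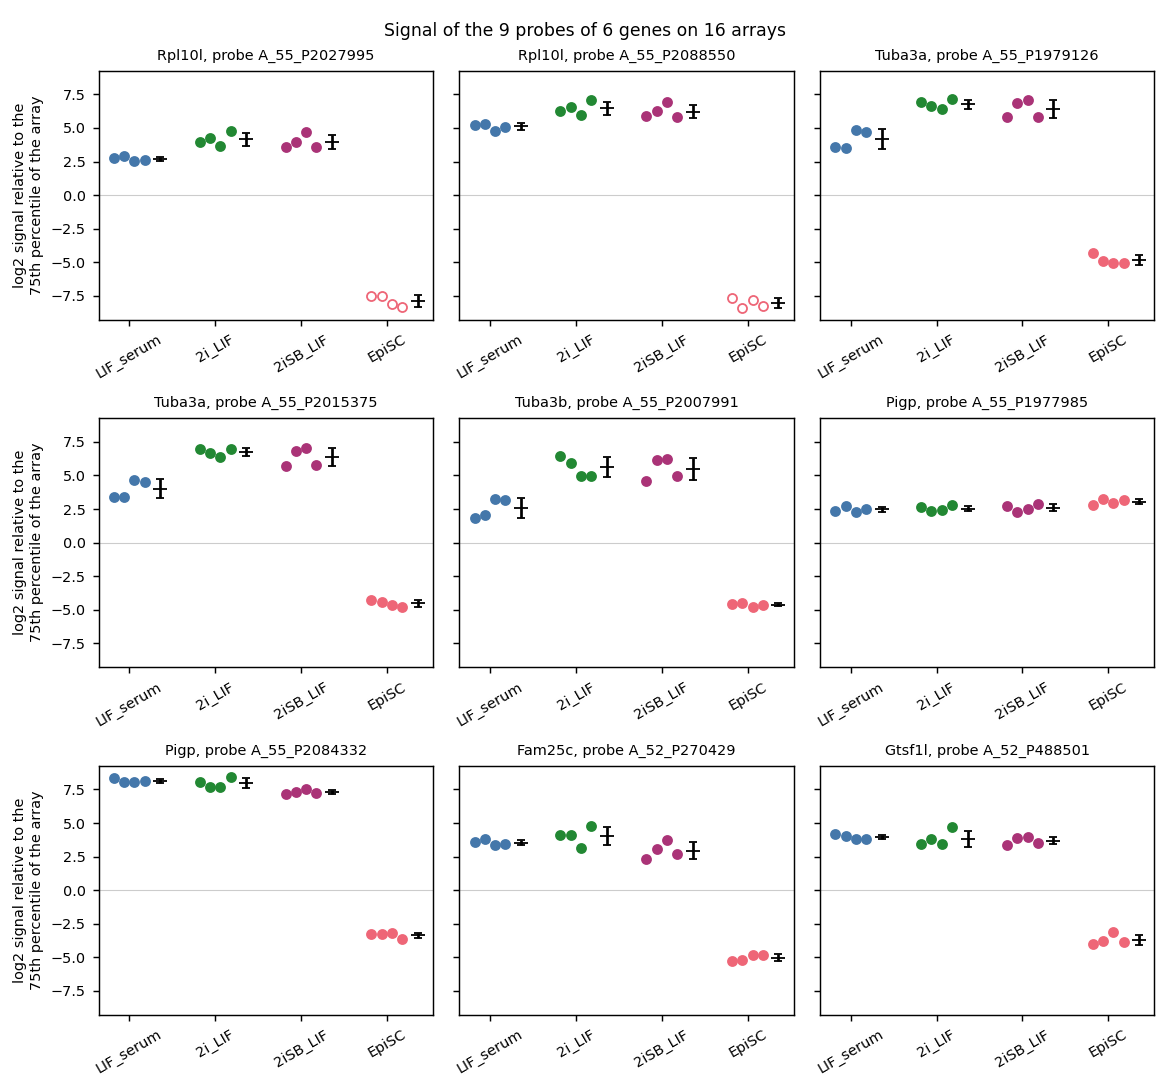
Log2 signal of the 9 probes of the 6 genes on each of the 16 arrays (points), relative to the 75th percentile of the array; filled points are well above background, open points are not, and the black mark beside each group is its mean ± SD (n = 4). The EpiSC arrays lie below all other arrays for 8 probes, and for the second Pigp probe, A_55_P1977985, they lie at 2.83 to 3.24 against 2.29 to 2.71 in LIF serum.

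Rpl10l (GRCm38.p6 chr12:66283379-66284401, 1 RefSeq transcript) was the only one of the 6 genes that was undetected in EpiSC. Probe A_55_P2088550 read 5.25, 5.33, 4.81 and 5.06 on the LIF serum arrays, 6.29, 6.53, 5.96 and 7.08 on the 2i arrays, 5.88, 6.27, 6.92 and 5.82 on the 2iSB arrays, and -7.65, -8.44, -7.81 and -8.24 on the EpiSC arrays. All 12 arrays of the embryonic stem cell groups were well above background and none of the 4 EpiSC arrays was. A probe below background gives only a bound, taken here from the mean of the bright group against the lowest signal that the scanner software still calls well above background on each EpiSC array. Rpl10l was thus at least 2359-fold lower in EpiSC than in LIF serum, at least 6018-fold lower than in 2i and at least 5093-fold lower than in 2iSB by this probe. Its second probe, A_55_P2027995, for the same transcript, gave at least 442-fold, 1221-fold and 1055-fold. Bounds of this kind, here and below, hold only for the processing used here. With normexp background correction the EpiSC minus LIF serum difference was -8.92 for A_55_P2088550 and -6.48 for A_55_P2027995. In the authors' deposited table it was -11.02 and -8.23. These falls are smaller than the bounds.

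Tuba3a (chr6:125278270-125286081) and Tuba3b (chr6:145615963-145621477), the testis alpha tubulins, were both low in EpiSC but measurable. Tuba3a by probe A_55_P2015375 read 3.43, 3.38, 4.68 and 4.53 in LIF serum, 6.99, 6.65, 6.35 and 7.0 in 2i, 5.73, 6.83, 7.01 and 5.82 in 2iSB, and -4.24, -4.44, -4.65 and -4.79 in EpiSC. Tuba3b read 1.86, 2.07, 3.24 and 3.19 in LIF serum, 6.49, 5.96, 4.99 and 4.98 in 2i, 4.57, 6.12, 6.20 and 4.97 in 2iSB, and -4.54, -4.53, -4.79 and -4.66 in EpiSC. The mean of EpiSC minus that of LIF serum (n = 4 in each) was -8.53 for this Tuba3a probe (SDs 0.24 and 0.70), -8.98 for the other Tuba3a probe, A_55_P1979126, and -7.22 for Tuba3b (SDs 0.12 and 0.72). Every EpiSC array lay below every array of the other groups. The EpiSC spots were still well above background on all 4 arrays, so by detection only Rpl10l was silent, and these genes had a low signal. In LIF serum, replicates 3 and 4 read higher than replicates 1 and 2 for both genes, and the code and the slide of those arrays cannot be told apart. The sequences of these genes are alike, so their probes may share signal.

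Pigp, the GPI transferase subunit (chr16:94358763-94371015, 6 RefSeq transcripts), gave a different answer with each of its probes. Probe A_55_P2084332, assigned to transcript NM_001159620, read 8.33, 8.02, 8.09 and 8.12 in LIF serum, 8.09, 7.71, 7.68 and 8.43 in 2i, 7.19, 7.28, 7.54 and 7.20 in 2iSB, and -3.29, -3.30, -3.18 and -3.63 in EpiSC. Probe A_55_P1977985, assigned to transcript NM_001159617, read 2.35, 2.71, 2.29 and 2.54 in LIF serum, 2.63, 2.34, 2.42 and 2.77 in 2i, 2.76, 2.31, 2.48 and 2.89 in 2iSB, and 2.83, 3.24, 2.94 and 3.21 in EpiSC. The first probe was lower in EpiSC than in LIF serum (-11.49 on the log2 scale, SDs 0.19 and 0.14), the second higher (0.58, SDs 0.20 and 0.19). The EpiSC arrays lay above all LIF serum and 2i arrays for the second probe and overlapped the 2iSB arrays. Over all genes tested, 31.1% lay apart in this direction against LIF serum and 28.8% against 2i. Both probes were well above background on all 16 arrays, so by detection Pigp was not silent in EpiSC by either probe.

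The distance between the EpiSC to LIF serum differences of the Pigp probes was 12.07 on the log2 scale, the widest of the 4045 genes that have 2 or more tested probes, for which the median distance was 0.37 and the 95th percentile 2.23. Pigp was the only one of those genes with 1 probe lower by at least 5 and another not lower, a criterion chosen after its values had been seen. The Tuba3a probes differed by 0.45. Both Rpl10l probes were below background in EpiSC. Where in each transcript the probes lie was not analysed here, so whether EpiSC lines use a different transcript of Pigp was not tested beyond this contrast of the probes. Fam25c, Tuba3b and Gtsf1l have 1 probe each, and the same comparison could not be made for them.

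Fam25c (chr14:34351882-34358339) read 3.55, 3.78, 3.39 and 3.44 in LIF serum, 4.14, 4.08, 3.14 and 4.75 in 2i, 2.31, 3.08, 3.74 and 2.66 in 2iSB, and -5.28, -5.23, -4.81 and -4.81 in EpiSC. Gtsf1l (chr2:163087031-163089601), the Gtsf1 paralog, read 4.15, 4.00, 3.81 and 3.83 in LIF serum, 3.41, 3.79, 3.44 and 4.69 in 2i, 3.38, 3.89, 3.98 and 3.54 in 2iSB, and -4.01, -3.78, -3.15 and -3.85 in EpiSC. EpiSC was lower than LIF serum (-8.57 for Fam25c, SDs 0.26 and 0.17, and -7.65 for Gtsf1l, SDs 0.38 and 0.16). Both were well above background on all 4 EpiSC arrays. All 6 genes had every EpiSC array below every LIF serum, 2i and 2iSB array by at least 1 probe; the share of all tested genes with no overlap in this direction was 28.1%, 26.8% and 25.9%. The rule used these comparisons, so nothing is read from that count.

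In every probe but the second of Pigp, EpiSC was the lowest of the groups. The order of the other groups differed. For Rpl10l, Tuba3a and Tuba3b it was LIF serum, then 2iSB and 2i, with 2iSB and 2i overlapping. For Pigp by its first probe it was 2iSB, then 2i and LIF serum, the last overlapping 2i. The arrays of Fam25c and Gtsf1l overlapped among all 3 embryonic stem cell groups.

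The comparison of the ground state with LIF serum asks whether the genes vary among lines that express them. The LIF serum, 2i and 2iSB arrays all entered the choice of the genes as the bright side, so comparisons among these groups share their arrays with it. Differences were tested by limma over all probes, and a call needed both an adjusted p under 0.05 and a change of at least 2-fold. In 2i against LIF serum, 3 of the 6 genes rose, Rpl10l, Tuba3a and Tuba3b, and none fell. The probes of Tuba3a and Tuba3b may share signal, so their rises, here and in 2iSB, may not be separate. Over all genes tested, 17.6% were called in this comparison, with 5.96% of all genes higher and 11.7% lower. Tuba3b rose by 3.01 on the log2 scale (SE 0.44, limma adjusted p = 0.00023), Tuba3a by 2.74 (SE 0.35, adjusted p = 8.4e-05) and Rpl10l by 1.35 (SE 0.28, adjusted p = 0.0031). Every 2i array lay above every LIF serum array for each of them, as was so for 12.8% of all genes. The second probes gave 2.62 for Tuba3a and 1.47 for Rpl10l.

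In 2iSB against LIF serum the same 3 genes rose, against 19.6% of all genes called and 6.33% called higher: Tuba3b by 2.88 (adjusted p = 0.00029, limma), Tuba3a by 2.34 (adjusted p = 0.00025) and Rpl10l by 1.11 (adjusted p = 0.0093). Pigp by its first probe was lower by less than 2-fold (-0.84, SE 0.18, adjusted p = 0.0031), with no overlap between the groups (16.6% of all genes lay apart in this direction). Fam25c (0.49 in 2i, -0.59 in 2iSB) and Gtsf1l (-0.12 and -0.25) were not called. With slide as a block, Tuba3a rose by 2.95 and 2.56, Tuba3b by 3.15 and 3.01, and Rpl10l by 1.45 and 1.21, in 2i and 2iSB. Within slide 1 alone, Rpl10l no longer reached 2-fold (0.97 in 2i and 0.70 in 2iSB), while within slide 2, where 1 array stands for each ground-state group, it was 2.14 and 1.98. Within slide 1, Tuba3a was 3.26 and 2.72, and Tuba3b 3.84 and 3.25; within slide 2 Tuba3a was 2.40 in 2i and Tuba3b was 1.77 in 2i and 2.99 in 2iSB. Without 2iSB replicate 3, the highest 2iSB array for Rpl10l, its rise over LIF serum was 0.88 and was no longer called.

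**Figure D2:**
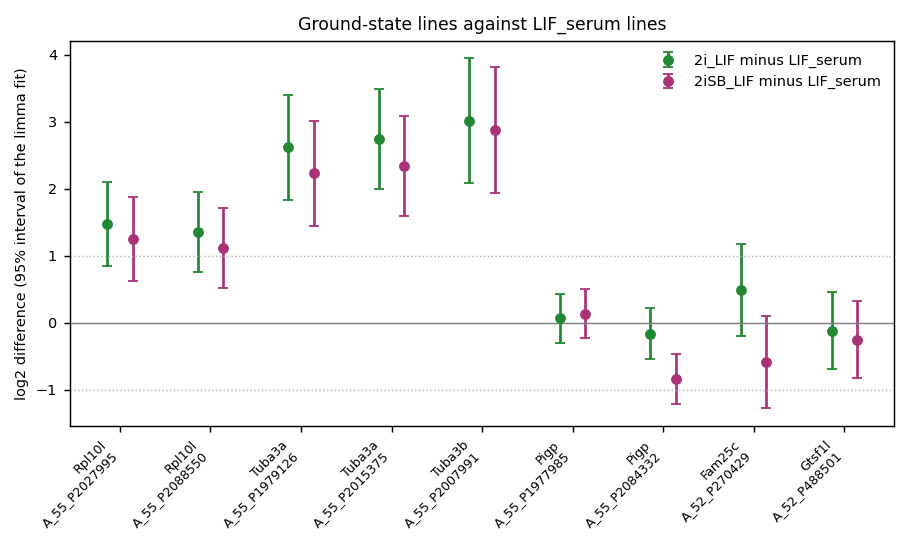
Log2 difference of the 2i lines (green) and the 2iSB lines (purple) from the LIF serum lines, for each probe, with 95% intervals from limma (4 arrays a group); dotted lines mark 2-fold. The Rpl10l, Tuba3a and Tuba3b probes lie above the upper dotted line, at 1.11 to 3.01, and no other probe does.

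Between the 2iSB and the 2i lines, which are separate lines, none of the 6 genes was called (0 of 6, against 0.0838% of all genes called). At an unadjusted p under 0.05 there were 2, Fam25c (-1.08, SE 0.32, limma adjusted p = 0.54) and Pigp by its first probe (-0.67, adjusted p = 0.38). The 95% interval of the difference ran from -1.77 to -0.39 for Fam25c, from -1.05 to -0.30 for Pigp, from -0.84 to 0.36 for Rpl10l, from -1.14 to 0.35 for Tuba3a, from -1.07 to 0.80 for Tuba3b and from -0.71 to 0.44 for Gtsf1l. Changes of 2-fold thus lie inside the intervals of Fam25c, Pigp by its first probe, Tuba3a and Tuba3b. By the second Pigp probe the difference was 0.07, with an interval from -0.30 to 0.43, which leaves out 2-fold. On slide 2 alone, with 1 array a group, Tuba3b turned to the opposite side (1.23, against -0.14 over all arrays).

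The related genes were compared to see whether a whole family or complex fell with its member. These lists and the tests on them were not used to choose the 6 genes. Of 93 related genes tested, 15 were called lower and 7 higher in EpiSC than in LIF serum, against 16.2% and 16.9% of all genes tested. The median over the related genes was -0.31 and that over all genes was 0.02. Of the 15 called lower, 7 were not well above background on all 4 EpiSC arrays and were tested only because another group was bright. Among genes well above background on all EpiSC arrays, 8 of 85 related genes were called lower, against 11.9% of all such genes, a count added after the values were seen.

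Most ribosomal protein genes were not called. Rpl10, the X-linked parent of Rpl10l, differed by less than 2-fold (-0.18, SE 0.18, limma adjusted p = 0.42). None of the 24 tested large-subunit genes was called (median -0.37). Among the 17 genes of the paralog list 3 fell: Rps4l by 6.82 (3 of the 4 LIF serum arrays were usable), Rpl39l by 5.10 (SE 0.36) and Rpl3l, which was not well above background in EpiSC, at least 12.7-fold. Over all genes tested, 16.2% were lower. Of the 16 genes of the list well above background on all EpiSC arrays, 2 were lower (12.5%), near the 11.9% of all such genes. Nothing is thus read from the count. Rpl39l and Rpl3l are paralogs known from testis and from muscle. Rpl22l1, another paralog, differed by -0.28 and was not called. The level of Rpl10 was measured well above background in all 4 EpiSC arrays while both Rpl10l probes were below it there.

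Of the other alpha tubulins 5 were tested and none was called lower, and Tuba1a rose by 1.02 (SE 0.14, limma adjusted p = 2.9e-05), a call that was lost with slide as a block (0.94), within slide 2 (0.87), and without LIF serum replicate 1 (0.90), EpiSC replicate 1 (0.99) or EpiSC replicate 3 (0.99). Tuba1b (0.04), Tuba1c (0.12) and Tuba4a (0.06), which form the general microtubule pool of cells, were not called, nor was Tuba8 (-1.02, adjusted p = 0.082). Tubal3 was not well above background in either group. Of 11 tested beta, gamma, delta and epsilon tubulins, Tubb2a (1.37) and Tubb6 (1.11) rose and Tubb2b fell (-1.05).

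The enzyme that Pigp belongs to was measured by 5 further subunits, of which none was called lower. Dpm2, a regulatory subunit shared with dolichol-phosphate-mannose synthase, rose by 1.01 (SE 0.22, limma adjusted p = 0.0014). That is just past 2-fold, so its call rests on a narrow margin and may be lost when an array is left out. Piga, the catalytic subunit, differed by -0.74, Pigc by 0.46, Pigh by 0.88 and Pigq by -0.01, and none of these was called. Of the 20 other tested genes of GPI anchor synthesis, Pigm, a mannosyltransferase, rose (1.25), while Pigl, a deacetylase (-1.36), and Pigz, a late mannosyltransferase (-2.15), fell, and 17 were not called.

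Of 17 genes of the Gtsf1 family and piRNA list with a probe, 11 were tested, and 9 of these were called lower and 2 higher, against 16.2% and 16.9% of all genes. For 5 of the 9 the count is not informative, since they were not well above background on all EpiSC arrays and passed the filter only through groups where they were bright. The 6 that were well above background on all EpiSC arrays divided into 4 lower and 2 higher. Gtsf1, the paralog of Gtsf1l, fell by 6.83 (SE 0.39, limma adjusted p = 3.1e-09) and rose in 2i and 2iSB over LIF serum by 1.92 and 1.65. Mael, a component of the perinuclear granules of germ cells, and Tdrd12 and Mov10l1, 2 factors of piRNA production, were below background in EpiSC and at least 447-fold, 420-fold and 22.2-fold lower than in LIF serum. Piwil2, a PIWI protein that binds piRNAs, fell by 4.56, with 2 of the 4 EpiSC arrays well above background. Tdrkh and Tdrd7, Tudor-domain proteins of the pathway and the 2 genes that rose, were higher by 3.38 and 2.26. Gtsf2 was not well above background in either group. In a list of germ cell genes 17 of 18 tested genes were called lower, but 11 of the 17 passed the filter only through groups where they were bright. Of the 7 that were well above background on all EpiSC arrays, 6 were called lower, against 11.9% of all such genes. The genes called lower include Stra8 (at least 557-fold), Ddx4 (at least 195-fold), Tex14 (at least 178-fold), Dazl (at least 38.2-fold) and Sycp3 (-9.66, with 2 of the 4 EpiSC arrays well above background), which act in germ cell development and meiosis. All of these named genes are among the 11, and none is among the 7, so their calls are not informative. In 2i against LIF serum 12 of the 18 germ cell genes were not called, 3 were higher and 3 lower (median 0.25), against 5.96% and 11.7% of all genes. The 4 that differed most were Dazl (3.04), Tex101 (-1.85), Sycp3 (-1.65) and Ddx4 (-1.15). A list of 18 genes that repress germline promoters or act on their DNA methylation, in either direction, had 3 genes higher in EpiSC than in LIF serum, 3 lower and 12 not called. That is 16.7% in each direction, near the 16.2% lower and the 16.9% higher over all genes. Those higher were Ring1 (1.86), E2f6 (1.57) and Dnmt3a (1.41). Those lower were Dnmt3l (-8.55), a cofactor of DNA methylation, and Tet1 (-1.97) and Tet2 (-1.84), which oxidise methylated cytosine and so oppose it. E2f6 and Dnmt3a were named after their values were seen, and whether they have a part in the fall of the members was not tested.

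**Figure D3:**
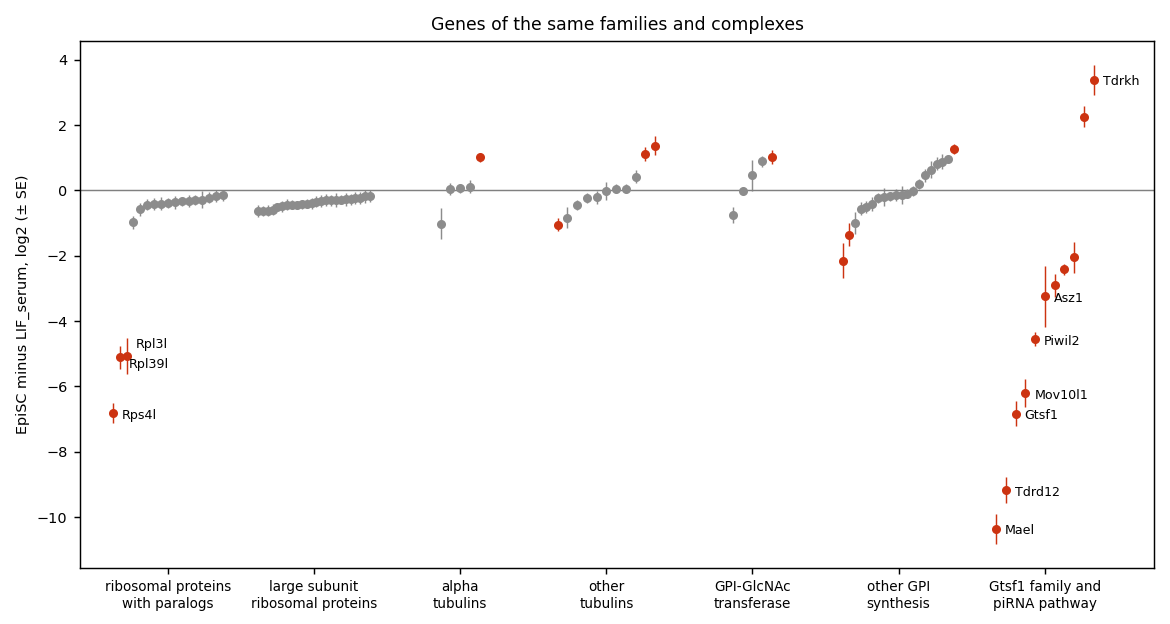
Log2 difference between EpiSC and LIF serum for each tested related gene, by family or complex (points, ± SE from limma, 4 arrays a group less any outlier spot); red points were called, grey points were not, and genes past 3 are named. Of the ribosomal protein genes only Rps4l, Rpl39l and Rpl3l are red, all below 0, the 4 red tubulin genes lie between -1.05 and 1.37, and 9 of the 11 tested genes of the piRNA list are red and below 0.

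The nearest named protein-coding genes on each chromosome were examined next, 3 on either side of each member. They were taken by order, not distance, and the gaps ran from 0 bases (Ttc3, beside Pigp) to 2884413 bases (Lrr1, beside Rpl10l). Of 32 neighbours tested, 5 were called lower and 7 higher (median -0.10), against 16.2% and 16.9% of all genes. Around Rpl10l, the neighbour Wdr20rt, which lies 1054925 bases away, fell (-1.86). Around Fam25c, Mmrn2, an extracellular matrix protein of blood vessels (-4.07), and Shld2, a DNA repair factor (-1.35), fell while Bmpr1a, a BMP receptor, rose (1.39). Around Gtsf1l, Mybl2, a cell cycle transcription factor whose gene lies 2343 bases away, fell (-2.31) and Sgk2, a kinase, fell (-4.33). Around Tuba3a, Tapbpl, Ltbr and Tnfrsf1a, genes of immune signalling, rose by 1.21, 2.14 and 2.28. Around Tuba3b, Sspn, a membrane protein of muscle, rose (1.99). Ttc3, a ubiquitin ligase gene that overlaps Pigp, rose by 1.44 (SE 0.17, limma adjusted p = 5.7e-06), while the first Pigp probe fell.

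**Figure D4:**
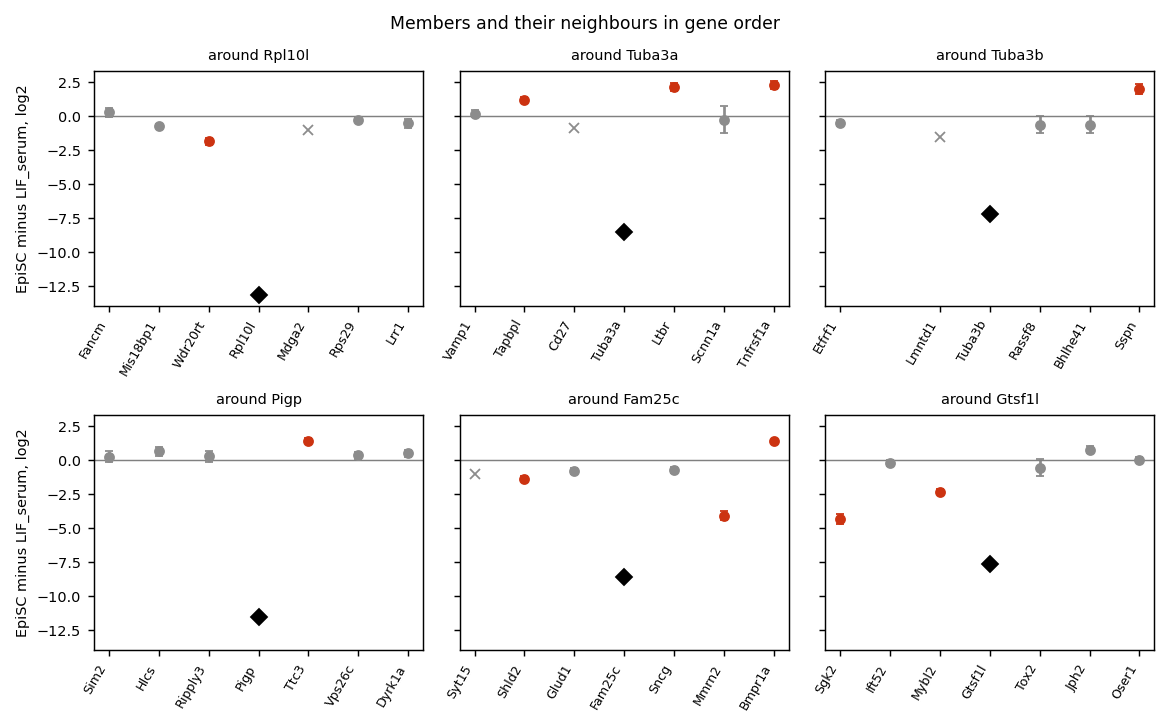
Log2 difference between EpiSC and LIF serum for each of the 6 genes (black diamonds, described only) and up to 3 neighbours on either side in gene order (points, ± SE; red called, grey not called, crosses not tested because no group was well above background on all arrays). The black diamonds lie between -13.15 and -7.22, and only Sgk2 and Mmrn2 among the tested neighbours lie below -4.

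Over the 16 arrays, the genes whose log2 values followed each gene most closely were counted among 14533 named genes. Rpl10l went with Esrrb, a naive factor (Pearson r = 0.998), Tex11 (0.998) and Morc1 (0.997). Tuba3a went with Dcstamp (0.996), Rec114 (0.996) and Rbm44 (0.995), and Tuba3b with Tuba3a (0.995), Dcstamp (0.992) and Bcl2l14 (0.992). The first Pigp probe went with Dppa5a (0.999), Dppa4 (0.998) and Noxred1 (0.997), Fam25c with Pigp (0.994), Zfp981 (0.993) and Gtsf1l (0.993), and Gtsf1l with Pycard (0.998), Dppa5a (0.996) and Dppa4 (0.996). These values rest on the large step between EpiSC and the other arrays, which the genes share by choice.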

How the data were processed

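The deposited scanner files hold intensity values per spot (gProcessedSignal, background-subtracted) from Agilent Feature Extraction 10.7.1.1, per the file headers, and the submitters' processing notes also name limma. RNA was labelled with Cy3, per the labels. The authors' deposited value table holds log2 values of 42316 probes with a centring that no source used here states.

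Control spots and outlier spots were left out, spots of a probe were averaged, and each array was scaled by its 75th percentile. Probes well above background on all 4 arrays of a group (33275 probes, 15517 genes, each by its brightest tested probe) were fitted with limma 3.58.1 in R 4.3.3 as 4 group means, with Benjamini-Hochberg adjustment over all probes. The scripts were tested on simulated data. Members, lists and tests were chosen with earlier results of these data known. Genes named are the members, family members, called neighbours, up to 4 further called genes a list and the 3 most correlated genes of each member. The normexp alternative used gMedianSignal in place of the planned gMeanSignal. Replicate numbers did not pair the arrays: 7 of 24 correlations of deviations were over 0.1 (-0.57 to 0.34). Alternatives are given in the closing section. Some genes that this naming rule selects are not reported here.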

Additional observations from a re-analysis of the deposited data

How the results depend on the processing

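Each result was recomputed with normexp background correction, quantile normalization, median centring, other probe filters, the mean of a gene's probes, slide as a block, each slide alone, the authors' deposited value table and each array left out. The median EpiSC minus LIF serum difference of the 6 genes was -8.55, and it was -6.90 with normexp, -8.12 with quantile normalization, -8.11 with the mean of a gene's probes and -7.57 in the authors' deposited table. It was -8.65 to -8.46 with 1 array left out. The median over all tested probes was -0.14, and it was -0.16 with normexp, 0.05 with quantile normalization and 0.01 with median centring. The size of a fall to near background depends on the background step. Related genes lower numbered 7 under a filter for probes well above background on all 16 arrays, which removes genes that are dark in EpiSC, and 15 to 18 with 1 array left out (higher, 5 to 7). Neighbours lower numbered 9 within slide 2, and neighbours higher 6 to 7 with 1 array left out. Within slide 2, where 1 array stands for each ground-state group, Tuba3b in 2iSB against 2i reversed to 1.23 (-0.14 over all arrays). With lone arrays, no call is read from that comparison. Members called in 2iSB against LIF serum ranged from 2 to 3 with 1 array left out. Fam25c in 2i against LIF serum was 1.33 within slide 2, with 1 array of 2i, and 0.49 over all arrays. The cause of these changes was not tested except for the filter. The replicate block left 3, 3 and 0 members called, 15 related and 5 neighbour genes lower and 7 and 7 higher, so it changed no such count. Signal over background limits the depth of the Rpl10l fall to a bound, and that bound holds for the main processing only.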
